A study of Mus musculus with 6 samples.

Results

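The S100 proteins are small, mostly calcium-binding proteins, and the transcripts of 8 of their genes were followed across bone marrow neutrophils of mice labelled knockout (KO) or wild type (WT) for Snph. The 8 genes, S100a8, S100a9, S100a6, S100a11, S100a4, S100a10, S100a1 and S100a13, were taken by symbol from a table of 51789 genes, and all 8 were among the 10397 genes that passed the filter on low counts. Snph encodes syntaphilin, which docks mitochondria on microtubules, and the series title concerns neutrophil migration in cancer. The KO group held 3 libraries (KO 1, KO 2 and KO 3), labelled as Snph knockout, and the WT group held 3 libraries (WT 1, WT 2 and WT 3), labelled as Snph wild type. Cells of both groups were captured with beads against Ly6G, which mouse neutrophils carry on their surface. The sources used here give no strain, no age, no form of the Snph allele and no cell type in which it was altered. No label names separate animals, so a p-value here reflects the spread between these libraries alone, which may be technical.

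Most S100 proteins bind calcium through a pair of EF-hand motifs and act as dimers that expose a binding surface for partner proteins once calcium is bound. S100A8 and S100A9 form calprotectin, a very abundant protein complex of the neutrophil cytosol, which sequesters zinc and manganese from microbes, delivers arachidonic acid to the NADPH oxidase and signals through TLR4 and RAGE once it is released. The others are known mainly from work inside the cell: S100A6, S100A10 and S100A11 bind annexins at membranes, S100A4 binds non-muscle myosin II, S100A1 is best known as a regulator of calcium handling in muscle, and S100A13 takes part in the export of FGF1 and interleukin-1 alpha by a route without a signal peptide.

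Total counts were 7179569 to 9165218 in the KO-labelled libraries and 7018388 to 9664381 in the WT-labelled libraries. Before any scaling between libraries, 1 count was thus worth 0.103 to 0.142 counts per 1000000 (CPM). The targeted gene went against the labels: Snph had 5, 2 and 8 counts in KO 1, KO 2 and KO 3 and 0 counts in each WT-labelled library (exact two-sided permutation test, p = 0.1, the smallest p that 3 against 3 libraries allow). Every direction below therefore rests on the labels as they stand. KO 3 lay between KO 1 and KO 2 on the one side and the WT-labelled libraries on the other along the first principal component, at -3.90 against 23.5 and 29.2 in KO 1 and KO 2 and -18.3 to -13.2 in the WT-labelled libraries. The cells carried neutrophil transcripts in every library. Ly6g itself, named here because it is the selected protein, stood at 1185 ± 78.9 CPM in the KO-labelled and 1044 ± 101 CPM in the WT-labelled libraries (SD, n = 3 each).

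The 8 transcripts spanned a 39260-fold range of abundance, and their order was nearly the same in every library. CPM values here were scaled by TMM factors, which correct for differences in RNA composition. The libraries carry a tag from the 3′ end of each transcript, so levels of different genes were compared as CPM of tags with no division by length. S100a8 and S100a9 were the most and the second most abundant transcripts of all genes in 6 of 6 libraries. S100a6 ranked between 12 and 13 and S100a11 between 17 and 21. S100a13 followed at ranks between 1716 and 2067 and S100a1 between 4652 and 5498, while S100a4 and S100a10 lay near the lower limit of what was tested, at ranks between 7553 and 9177. Over 6 libraries, mean levels were 126290 CPM for S100a8, 105710 CPM for S100a9, 5179 CPM for S100a6, 2974 CPM for S100a11, 68.9 CPM for S100a13, 13.9 CPM for S100a1, 3.43 CPM for S100a4 and 3.22 CPM for S100a10. Between neighbours in that order the step was 20.4-fold for S100a9 over S100a6 and 43.2-fold for S100a11 over S100a13. The ranges of S100a8 and S100a9 overlapped across libraries, as did those of S100a4 and S100a10, whereas the other neighbours did not overlap. Within each library S100a8 exceeded S100a9.

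**Figure D1:**
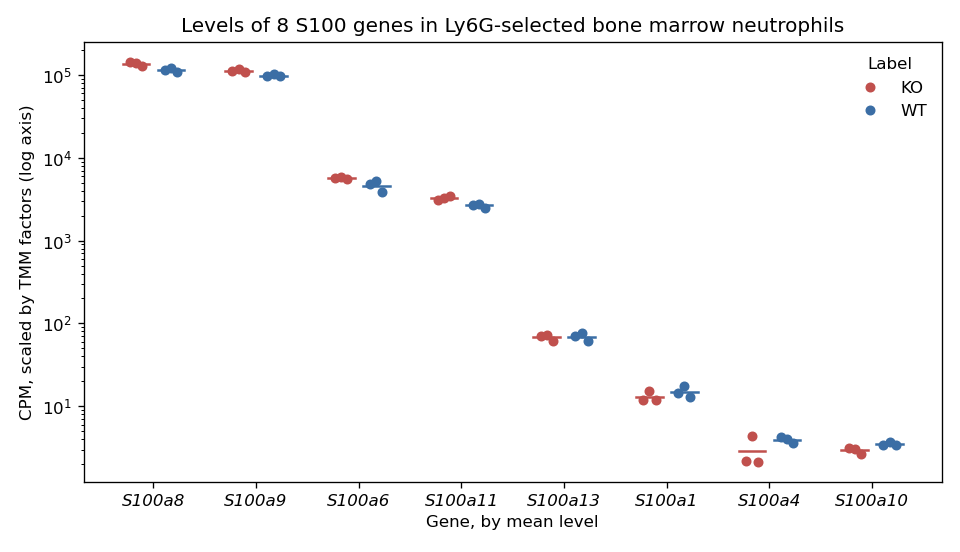
Level of each of the 8 S100 genes in each library, in CPM scaled by TMM factors on a log axis, with KO-labelled libraries left and WT-labelled libraries right; points are libraries and lines are group means. The calprotectin genes lie at 96130 CPM or more in 6 of 6 libraries, and S100a4 and S100a10 at 4.40 CPM or less.

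All 8 genes lie on chromosome 3 (mm10, GENCODE annotation). S100a1, S100a13, S100a4, S100a6, S100a8 and S100a9 sit within a stretch of 184.7 kb, and S100a11 and S100a10 within a stretch of 44.2 kb that starts 2.82 Mb further on. S100a8 (ENSMUSG00000056054, chr3:90668978-90670035, plus strand) and S100a9 (ENSMUSG00000056071, chr3:90692632-90695721, minus strand) point towards each other with 22.6 kb between them. The windows of 250 bases before the RefSeq start sites of these genes (GRCm38.p6, 5′ to 3′ on the strand of the gene) are shown because they flank the transcripts with the highest levels of all. Capitals mark matches to motifs searched by their letters on both strands: TATAAA (the TATA box), GGAAGT (a core that ETS factors such as PU.1 bind), TTNNGNAA (a C/EBP core), CCAAT and GGGCGG (the GC box). The S100a8 window runs over chr3:90668821-90669070 and the S100a9 window over chr3:90695722-90695971. The RefSeq start of S100a8 lies inside the gene as GENCODE annotates it, so the end of its window lies inside that gene too.
S100a8: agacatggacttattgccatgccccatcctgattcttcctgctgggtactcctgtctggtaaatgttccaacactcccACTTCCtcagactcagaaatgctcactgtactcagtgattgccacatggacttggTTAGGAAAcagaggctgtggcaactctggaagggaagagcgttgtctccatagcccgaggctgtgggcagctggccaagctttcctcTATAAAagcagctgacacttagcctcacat
S100a9: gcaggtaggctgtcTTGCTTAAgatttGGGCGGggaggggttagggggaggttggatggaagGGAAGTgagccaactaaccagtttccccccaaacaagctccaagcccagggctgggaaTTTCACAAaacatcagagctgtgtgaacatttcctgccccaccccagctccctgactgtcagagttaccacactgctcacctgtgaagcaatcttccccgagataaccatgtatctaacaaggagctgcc
TATAAA was found 30 bases before the S100a8 start, at position -30, and was not among the letters of the S100a9 window. Both windows held an ETS core, at -172 in S100a8 and at -188 in S100a9. Both also held the C/EBP core, at -117 in S100a8 and at -236 and -130 in S100a9. A GC box was found in the S100a9 window at -223. Of 32851 RefSeq windows of the same length, 12.4% held TATAAA, 19.7% the ETS core, 36.8% the C/EBP core, 33.8% CCAAT and 32.7% the GC box. These matches are letters only, and no binding was measured.

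S100a8 was higher in the KO-labelled libraries, and S100a9 lay higher by a similar amount without passing the test. S100a8 had 142071, 138595 and 129952 CPM in KO 1, KO 2 and KO 3, against 115370, 122498 and 109253 CPM in WT 1, WT 2 and WT 3. Each KO-labelled library exceeded each WT-labelled library. The mean was 136873 ± 6240 CPM in the KO-labelled and 115707 ± 6629 CPM in the WT-labelled libraries (SD, n = 3 each), a 1.18-fold level (95% interval 1.10 to 1.27; log2 fold change 0.24, SE 0.05; edgeR quasi-likelihood test, adjusted p = 0.0314). S100a9 had 113312, 116936 and 108450 CPM in KO 1, KO 2 and KO 3, against 97394, 102035 and 96130 CPM in WT 1, WT 2 and WT 3. Here too the groups did not overlap, with means of 112900 ± 4258 CPM in the KO-labelled and 98520 ± 3109 CPM in the WT-labelled libraries (SD, n = 3 each). Its log2 fold change was 0.20 (SE 0.04, 95% interval of the fold 1.07 to 1.22; edgeR adjusted p = 0.0517). The call of S100a8 ended in 6 of 15 alternatives, among them the fits without KO 1, KO 2, WT 1 or WT 3 (edgeR adjusted p 0.102, 0.126, 0.145 and 0.0617), and 6 alternatives called S100a9. No direction changed among them. In bulk RNA, fewer cells of a type and less RNA per cell cannot be told apart. Markers of mature neutrophils, 1 of 8 called higher, summed to 31500 to 31762 CPM in the KO-labelled and 26273 to 27485 CPM in the WT-labelled libraries. Much of that sum was the called gene, Retnlg. It stood at 15920 ± 588 CPM in the KO-labelled and 12521 ± 555 CPM in the WT-labelled libraries (SD, n = 3 each). Macrophage markers, 10 of 10 called lower, summed to 492 to 596 CPM in the KO-labelled and 1058 to 1151 CPM in the WT-labelled libraries. The part of either in the S100 values was not tested.

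As a share of all counts, the calprotectin genes took 24.6%, 24.3% and 23.4% of KO 1, KO 2 and KO 3, against 22.0%, 22.8% and 21.8% of WT 1, WT 2 and WT 3. The lowest KO-labelled share exceeded the highest WT-labelled share. The means were 24.1% ± 0.65 in the KO-labelled and 22.2% ± 0.53 in the WT-labelled libraries (SD, n = 3 each), a difference of 1.89 percentage points (exact two-sided permutation test, p = 0.1, the smallest p that the design allows). The exact binomial 95% interval of a single library's share was at most 0.0627 points wide, which covers counting error only. All 8 S100 genes together took 25.0% ± 0.63 of the counts of the KO-labelled and 23.0% ± 0.60 of those of the WT-labelled libraries (SD, n = 3 each).

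**Figure D2:**
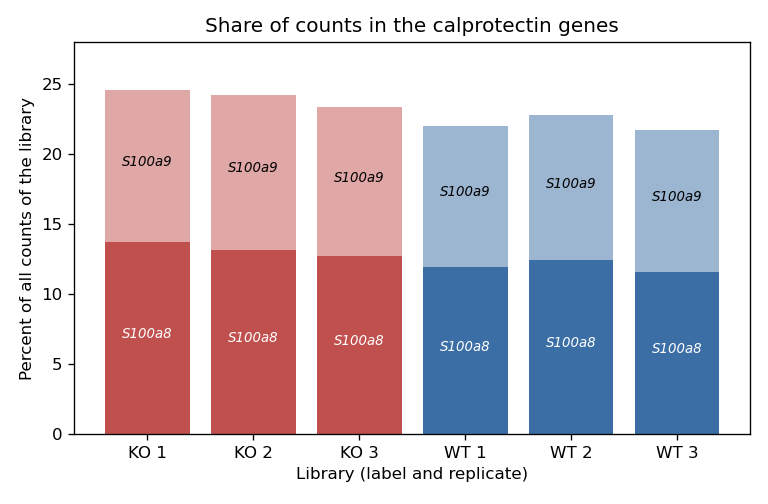
Percent of all counts of each library that fell on S100a8 (dark) and S100a9 (light), with the 3 KO-labelled libraries left of the 3 WT-labelled ones. The summed bars reach 23.4 to 24.6% in the KO-labelled and 21.8 to 22.8% in the WT-labelled libraries.

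The ratio of the subunit transcripts overlapped between the groups. The count of S100a8 divided by that of S100a9 was 1.254, 1.185 and 1.198 in KO 1, KO 2 and KO 3, against 1.185, 1.201 and 1.137 in WT 1, WT 2 and WT 3. KO 1 was the highest library and WT 3 the lowest, with means of 1.21 ± 0.036 in the KO-labelled and 1.17 ± 0.033 in the WT-labelled libraries (SD, n = 3 each). The log2 difference was 0.05 (exact two-sided permutation test, p = 0.4).

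S100a6 and S100a11, whose proteins bind annexins, had the largest fold changes of the 4 abundant genes in the edgeR fit. The windows of 250 bases before their RefSeq starts (GRCm38.p6, plus strand) are given for comparison with those of the calprotectin genes, at chr3:90612644-90612893 for S100a6 and chr3:93520246-93520495 for S100a11, with motif matches in capitals as above.
S100a6: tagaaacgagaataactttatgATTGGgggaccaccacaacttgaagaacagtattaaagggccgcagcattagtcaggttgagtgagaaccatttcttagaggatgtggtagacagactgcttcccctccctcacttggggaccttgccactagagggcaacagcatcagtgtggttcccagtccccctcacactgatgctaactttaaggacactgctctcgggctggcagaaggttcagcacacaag
S100a11: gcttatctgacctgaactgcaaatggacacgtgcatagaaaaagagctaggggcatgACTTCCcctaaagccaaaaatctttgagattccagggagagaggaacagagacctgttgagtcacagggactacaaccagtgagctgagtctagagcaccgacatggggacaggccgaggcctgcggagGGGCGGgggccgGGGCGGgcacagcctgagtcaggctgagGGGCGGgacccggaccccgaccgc
The last bases of both windows lie inside the genes as GENCODE annotates them. Neither window held TATAAA or the C/EBP core. The S100a6 window held CCAAT on the minus strand at -228, and the S100a11 window held an ETS core at -193 and GC boxes at -64, -52 and -24. GC content was 60.0% in the S100a11 window, 50.0% in that of S100a6, 50.8% in that of S100a8 and 53.6% in that of S100a9, and its median over all windows was 52.4%.

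S100a11 (ENSMUSG00000027907, chr3:93520488-93526287, plus strand) had 3094, 3281 and 3500 CPM in KO 1, KO 2 and KO 3, against 2696, 2800 and 2472 CPM in WT 1, WT 2 and WT 3. The groups did not overlap, and the mean was 3292 ± 203 CPM in the KO-labelled and 2656 ± 167 CPM in the WT-labelled libraries (SD, n = 3 each). It rose 1.24-fold (95% interval 1.12 to 1.37; log2 fold change 0.31, SE 0.07; edgeR adjusted p = 0.0480). That call ended in 10 of 15 alternatives, with a log2 fold change of 0.21 to 0.35 over all of them; of the fits without 1 library it held only without KO 1, and without KO 2, KO 3, WT 1, WT 2 or WT 3 the adjusted p was up to 0.169. S100a6 (ENSMUSG00000001025, chr3:90612882-90624181, plus strand) had 5774, 5848 and 5573 CPM in KO 1, KO 2 and KO 3, against 4776, 5198 and 3903 CPM in WT 1, WT 2 and WT 3. WT 3 was the lowest library, and the group ranges were apart. The coefficient of variation was 2.48% in the KO-labelled and 14.3% in the WT-labelled libraries (n = 3 each). S100a6 averaged 5732 ± 142 CPM in the KO-labelled and 4626 ± 660 CPM in the WT-labelled libraries (SD, n = 3 each), and its log2 fold change of 0.31 (SE 0.08) did not pass the test (edgeR adjusted p = 0.121). DESeq2 and the fit with no filter called it (adjusted p 0.0429 and 0.00041), and without WT 3 its log2 fold change was 0.20 (adjusted p = 0.210).

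S100a13 and S100a1 lie head to head, with 42 bases between the annotated genes, and neither passed the test. S100a13 (ENSMUSG00000042312, chr3:90514435-90524581, plus strand) had 70.7, 73.1 and 61.2 CPM in KO 1, KO 2 and KO 3, against 71.2, 75.8 and 61.3 CPM in WT 1, WT 2 and WT 3. The groups overlapped throughout. Its log2 fold change was -0.03 (SE 0.10, 95% interval of the fold 0.842 to 1.14; edgeR adjusted p = 0.954), and the sign turned without KO 3 or WT 2 (0.04 in each). S100a1 (ENSMUSG00000044080, chr3:90511034-90514392, minus strand) had 12.0, 15.3 and 11.9 CPM in KO 1, KO 2 and KO 3, against 14.4, 17.3 and 12.8 CPM in WT 1, WT 2 and WT 3. The ranges overlapped, with a log2 fold change of -0.20 (SE 0.18, 95% interval of the fold 0.668 to 1.14; edgeR adjusted p = 0.764).

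S100a4 and S100a10 were scarce, and their counts allowed only wide intervals. The S100a4 window (GRCm38.p6, plus strand, chr3:90603520-90603769) is shown because it holds TATAAA at -31, nearly where the S100a8 window holds it, before a transcript of very different level.
S100a4: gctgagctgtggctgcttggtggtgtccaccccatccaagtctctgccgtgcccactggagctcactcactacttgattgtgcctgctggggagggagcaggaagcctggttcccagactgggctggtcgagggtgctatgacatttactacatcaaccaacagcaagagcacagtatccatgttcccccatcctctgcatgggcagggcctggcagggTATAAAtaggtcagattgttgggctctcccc
S100a4 (ENSMUSG00000001020, chr3:90603771-90606045, plus strand) had 16, 30 and 19 counts in KO 1, KO 2 and KO 3, against 35, 39 and 27 counts in WT 1, WT 2 and WT 3. KO 2 was the highest of the 6 libraries once scaled, at 4.40 CPM, whereas KO 1 and KO 3 stood at 2.15 and 2.11 CPM, below the WT-labelled libraries at 4.28, 3.97 and 3.63 CPM. The log2 fold change was -0.47 (SE 0.37, 95% interval of the fold 0.417 to 1.25; edgeR adjusted p = 0.706). Exons of S100a4 overlap those of the predicted gene Gm42674 on the same strand, which leaves its counts uncertain, and Gm42674 had 0 counts in each library. S100a10 (ENSMUSG00000041959, chr3:93555080-93564643, plus strand) had 23, 21 and 24 counts in KO 1, KO 2 and KO 3, against 28, 36 and 25 counts in WT 1, WT 2 and WT 3, or 3.09, 3.08 and 2.67 CPM in the KO-labelled against 3.43, 3.67 and 3.36 CPM in the WT-labelled libraries. Each scaled KO-labelled value was below each WT-labelled value, but the log2 fold change of -0.25 (SE 0.33, 95% interval of the fold 0.515 to 1.38) did not pass the test (edgeR adjusted p = 0.851).

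Of the 8 S100 genes, 2 were called higher (S100a8 and S100a11) and 0 lower at an adjusted p under 0.05 by edgeR. DESeq2 called 3 (S100a6, S100a8 and S100a11) and limma-voom 3 (S100a8, S100a9 and S100a11), all higher. Of all 10397 tested genes, edgeR called 1.03%, 0.24% higher and 0.789% lower. Of the same 10397 genes DESeq2 called 174 (60 higher and 114 lower) and limma-voom 82 (24 higher and 58 lower). By edgeR, an unadjusted p under 0.05 was reached by 4 of the 8, all higher, against 11.4% of all genes. KO-labelled libraries all lay above WT-labelled ones for 4 of the 8 (7.48% of all genes) and all below for 1 (9.32% of all genes). The median log2 fold change was 0.08 over the 8 genes and 0.01 over all genes tested. The 4 abundant members had a median of 0.28 and the 4 members at 68.9 CPM or less a median of -0.22. The difference between the abundant and the scarce members was not tested.

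**Figure D3:**
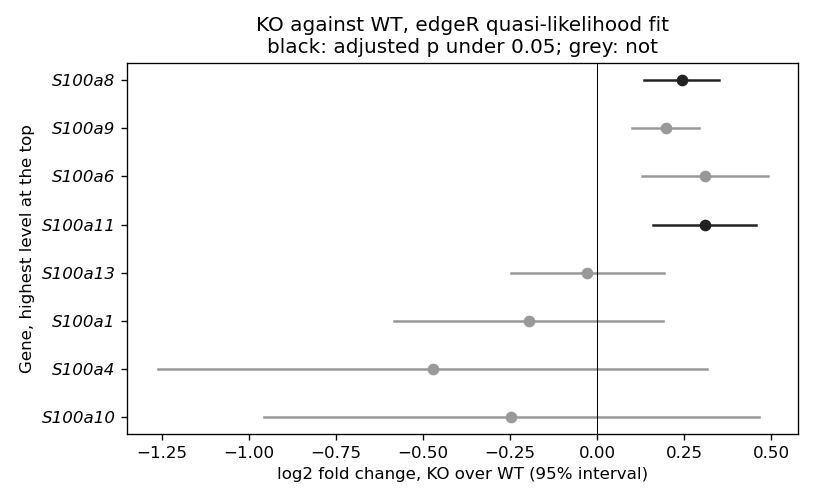
Log2 fold change of the KO-labelled over the WT-labelled libraries for each of the 8 genes, with its 95% interval from the edgeR fit; black marks an adjusted p under 0.05. S100a8 (0.24) and S100a11 (0.31) are black, and the intervals of the 4 scarce genes are wider, from -1.26 to 0.32 for S100a4.

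With TMM factors, abundant transcripts in general lay higher in the KO-labelled libraries. Of the 89 genes that averaged 1000 CPM or more, 77 had a log2 fold change above 0, with a median of 0.13, and 4 were called higher (Ccl6, Retnlg, S100a11 and S100a8) and 0 lower by edgeR. At an unadjusted p under 0.05, 33 of the 89 were higher and 1 was lower; DESeq2 called 8 higher and 1 lower, and limma-voom 6 higher and 0 lower. Ccl6, a chemokine gene, falls outside the naming rule and is named because of its call. The median was 0.08 over the 1247 genes from 100 to 1000 CPM and 0.02 over the 4594 genes from 10 to 100 CPM. Among the 89 genes, 10 had a larger log2 fold change than S100a8, 20 a larger one than S100a9, 5 a larger one than S100a6 and 4 a larger one than S100a11. With scaling to the total count only, the log2 fold changes of all genes shifted by a median of -0.10. That shift is nearly as large as the median of 0.13 of the 89 genes, which were not counted again with this scaling. Scaled in that way the log2 fold changes were 0.14 for S100a8, 0.09 for S100a9, 0.21 for S100a6 and 0.21 for S100a11. Relative to the shift they were 0.24 for S100a8, 0.20 for S100a9, 0.31 for S100a6 and 0.31 for S100a11. Another scaling moves all genes by nearly the same amount, so taking out the shift returns nearly the TMM values by construction. That scaling called 18 genes higher and 144 lower (88.9% lower), where TMM factors called 25 higher and 82 lower (76.6% lower), and 0 of the 8 S100 genes.

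**Figure D4:**
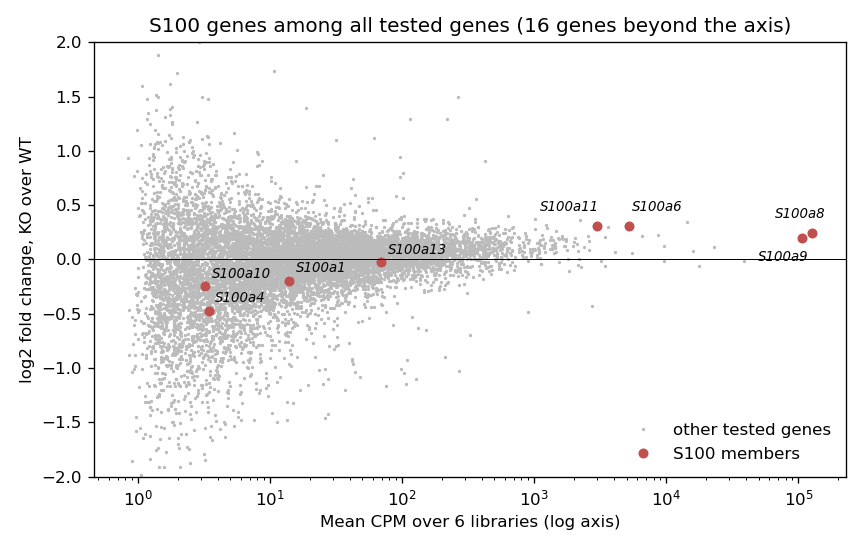
Log2 fold change of the KO-labelled over the WT-labelled libraries against mean CPM over 6 libraries (log axis) for the tested genes (grey) and the 8 S100 genes (red); 16 genes lie beyond the vertical axis limits of -2 and 2. S100a8, S100a9, S100a6 and S100a11 sit above 0 at the right, and S100a10, S100a4 and S100a1 sit below 0 at the left.

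The rest of the family was close to silent. Of 17 S100 genes in the table, 3 (S100a5, S100g and S100z) had no count in any library. S100b, a gene best known from glia and on chromosome 10, had 36, 4 and 6 counts in KO 1, KO 2 and KO 3, against 17, 8 and 15 counts in WT 1, WT 2 and WT 3, with KO 1 the highest library (log2 fold change 0.32, SE 0.71; edgeR adjusted p = 0.916). S100a2 had 17, 16 and 23 counts in the KO-labelled libraries against 16, 35 and 4 in the WT-labelled ones (log2 fold change 0.21, SE 0.53; adjusted p = 0.925), and S100a3 had 6, 17 and 19 against 16, 18 and 16 (-0.13, SE 0.49; adjusted p = 0.954). Neither passed the test, and exons of S100a3 overlap those of Gm42674 and Gm23464, which leaves its counts uncertain. S100a7a (1, 8 and 4 counts in the KO-labelled and 11, 10 and 6 in the WT-labelled libraries), S100a14 (0 in each KO-labelled library and 2, 4 and 2 in the WT-labelled ones) and S100a16 (2, 1 and 1 in the KO-labelled and 0, 2 and 0 in the WT-labelled libraries) were below the filter and were not tested. Between S100a1 and S100a9 the annotation also lists Gm24593, Gm23464, Gm42674 and Gm19739, and between S100a11 and S100a10 it lists Gm29950, all with 0 counts. The level changed steeply along the chromosome, from 0.82 CPM for S100a7a to 126290 CPM for its neighbour S100a8.

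**Figure D5:**
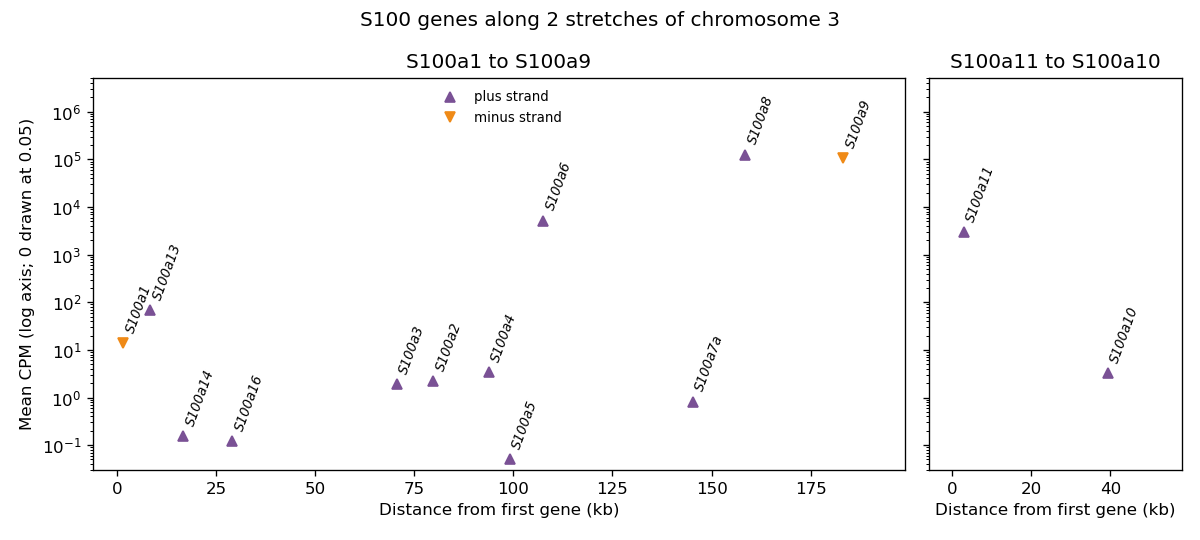
Mean CPM over 6 libraries (log axis, with 0 drawn at 0.05) of the S100 genes along both stretches of chromosome 3, by distance in kb from the start of the first gene; triangles up are on the plus strand and triangles down on the minus strand. S100a8 and S100a9 stand at the far end of the stretch of 184.7 kb, and S100a11 lies next to the scarce S100a10 in the stretch of 44.2 kb.

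Receptors that released S100 proteins are known to engage were transcribed at far lower levels than S100a8 and S100a9, and 0 of 10 passed the edgeR test in either direction. At an unadjusted p under 0.05, 4 of the 10 were higher and 1 was lower. DESeq2 called 2 higher, Emb and Mcam (adjusted p 0.0133 and 0.0450), and limma-voom called 0. Their median log2 fold change was 0.08 with TMM factors and -0.02 with scaling to the total count only. Emb, the gene of embigin, stood at 352 ± 14.3 CPM in the KO-labelled and 289 ± 9.99 CPM in the WT-labelled libraries (SD, n = 3 each; log2 fold change 0.28, SE 0.07; edgeR adjusted p = 0.102). Mcam, which encodes a receptor for the S100A8 and S100A9 dimer, stood at 10.7 ± 3.17 CPM in the KO-labelled and 5.36 ± 0.16 CPM in the WT-labelled libraries (SD, n = 3 each; 0.99, SE 0.24; adjusted p = 0.0745), with each KO-labelled library above each WT-labelled one. Nptn, the gene of neuroplastin, a receptor of S100A8, stood at 82.2 ± 13.2 CPM in the KO-labelled and 83.8 ± 4.23 CPM in the WT-labelled libraries (SD, n = 3 each). Tlr4 and Ager, which encodes RAGE, were outside the naming rule and were chosen after their values were seen, as the best-known receptors of calprotectin. Tlr4 stood at 30.5 ± 0.56 CPM in the KO-labelled and 23.9 ± 3.82 CPM in the WT-labelled libraries (adjusted p = 0.341), and Ager at 14.9 ± 3.09 CPM in the KO-labelled and 10.4 ± 0.91 CPM in the WT-labelled libraries (adjusted p = 0.293; SD, n = 3 each). In this list 6 genes lay above 0 and 4 below. Cd36 and Ly96, likewise outside the naming rule and chosen after their values were seen, were among those below. Cd36, at a mean of 1.88 CPM, had -1.53 (SE 0.54, edgeR adjusted p = 0.267). Ly96 had -0.28 (SE 0.32, edgeR adjusted p = 0.817).

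Partners inside the cell did not pass the edgeR test either. Of the NADPH oxidase genes, 0 of 6 were called by edgeR, DESeq2 or limma-voom, and 1 was higher at an unadjusted p under 0.05 by edgeR (median 0.13 with TMM factors and 0.02 with scaling to the total count only). Cybb, the catalytic subunit, stood at 2216 ± 86.7 CPM in the KO-labelled and 2331 ± 55.7 CPM in the WT-labelled libraries, and Rac2, the GTPase that activates the complex, at 2205 ± 87.6 CPM in the KO-labelled and 1995 ± 135 CPM in the WT-labelled libraries (SD, n = 3 each). The third gene named for this complex, Ncf4, had a log2 fold change of 0.21 (SE 0.09; edgeR adjusted p = 0.380). Of 13 partners such as annexins and myosin heavy chains, 11 were tested and 0 called by edgeR (median 0.12 with TMM factors and 0.02 with scaling to the total count only), with 2 higher and 1 lower at an unadjusted p under 0.05. DESeq2 called Anxa11 higher and Fgf1 lower (adjusted p 0.0490 and 0.0107), and limma-voom called 0. Anxa2, the partner of S100A10, stood at 1648 ± 164 CPM in the KO-labelled and 1449 ± 99.0 CPM in the WT-labelled libraries, and Myh9, the non-muscle myosin that S100A4 binds, at 1801 ± 109 CPM in the KO-labelled and 1795 ± 91.1 CPM in the WT-labelled libraries (SD, n = 3 each). Anxa11, the partner of S100A6, had a log2 fold change of 0.26 (SE 0.08; adjusted p = 0.163). Fgf1, which leaves cells together with S100A13, was scarce, at 0.71 ± 0.62 CPM in the KO-labelled and 3.91 ± 1.07 CPM in the WT-labelled libraries (SD, n = 3 each), all of the KO-labelled values being lower (log2 fold change -2.41, SE 0.62; adjusted p = 0.0930). No source used here gives the strand setting of the counting, and exons of Anxa2, Anxa11, Emb, Mcam, Nptn, Cebpd, Stat3, Lcp1, Vcam1, Csf1r, Ms4a6c and Mpo overlap genes on the other strand, so the counts of these genes are uncertain. Exons of Top2a overlap another gene on the same strand, with the same limit.

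Transcription factors named for the calprotectin genes, other EF-hand proteins and other abundant neutrophil proteins gave 0 calls by edgeR, DESeq2 or limma-voom. Of 10 transcription factor genes 1 was higher at an unadjusted p under 0.05 by edgeR (median log2 fold change 0.13; 0.03 with scaling to the total count only). Cebpd stood at 516 ± 28.6 CPM in the KO-labelled and 451 ± 20.1 CPM in the WT-labelled libraries (SD, n = 3 each; adjusted p = 0.311). Spi1, the gene of PU.1, had a log2 fold change of 0.14 (SE 0.09) and Stat3 of 0.15 (SE 0.07). Over the 10397 tested genes, 5293 lay above 0, and 11.4% reached an unadjusted p under 0.05 in either direction by edgeR. Of 19 other EF-hand genes, 18 lay above 0 and 3 were higher at an unadjusted p under 0.05 (median 0.15; 0.04 with scaling to the total count only). Among them were the actin bundler Lcp1 (0.09, SE 0.07), the myosin light chain Myl6 (0.16, SE 0.07), sorcin, Sri (0.22, SE 0.08), and the calcineurin subunit Ppp3r1 (0.21, SE 0.09), whose exons overlap another gene. Of 9 antimicrobial and metal-binding genes 4 were higher at an unadjusted p under 0.05 (median 0.08; -0.03 with scaling to the total count only). Lcn2, which withholds iron from bacteria, stood at 9284 ± 507 CPM in the KO-labelled and 7936 ± 730 CPM in the WT-labelled libraries (SD, n = 3 each; log2 fold change 0.23, adjusted p = 0.180). Ngp (0.11) and Lyz2 (-0.06) were the most abundant of that list, and Hp had 0.18. These log2 fold changes and adjusted p-values are from the edgeR fit.

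Markers of other cells moved between the same libraries. The 10 macrophage markers, of which each was called lower by edgeR, DESeq2 and limma-voom, had a median log2 fold change of -1.06. Among them were Vcam1 (-1.03, SE 0.11), C1qa (-1.01, SE 0.09), C1qb (-0.93, SE 0.09) and Cd5l (-1.16, SE 0.09), with edgeR adjusted p of at most 0.000131. Of the mature neutrophil markers 1 of 8 rose, the resistin-like gene Retnlg (log2 fold change 0.35, SE 0.05; edgeR adjusted p = 0.00498), and Mmp9 had 0.21 (SE 0.06; adjusted p = 0.174). All 8 lay above 0, and 4 were higher at an unadjusted p under 0.05; the list median was 0.13 with TMM factors and 0.03 with scaling to the total count only.

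Of 6 tested platelet markers 3 fell, among them Ppbp (log2 fold change -1.03, SE 0.15) and Itga2b (-0.99, SE 0.17), and the summed level of the list was 304 to 336 CPM in the KO-labelled and 354 to 393 CPM in the WT-labelled libraries; the most abundant of them, Gp1bb, had 0.05. Exons of Gp1bb overlap Sept5 and Gm49601 on the same strand, which leaves its counts uncertain, and without it the list summed to 57.9 to 85.2 CPM in the KO-labelled and 124 to 145 CPM in the WT-labelled libraries. Of 8 B and plasma cell markers 2 rose by edgeR (1 by limma-voom and 0 by DESeq2), Igkc (1.498, SE 0.27) and Jchain (1.39, SE 0.30), with summed levels of 345 to 797 CPM in the KO-labelled and 236 to 267 CPM in the WT-labelled libraries, while Ighm had -0.20. The list median was -0.03; Cd79b, outside the naming rule and chosen after its values were seen, had -0.76 (SE 0.22; adjusted p = 0.150), with each KO-labelled library below each WT-labelled one, and 1 of 8 markers was lower at an unadjusted p under 0.05. Without Igkc the list summed to 94.5 to 141 CPM in the KO-labelled and 108 to 120 CPM in the WT-labelled libraries. The eosinophil receptor gene Ccr3 fell (-1.15, SE 0.22), as 1 of 3 tested eosinophil and basophil markers, beside Siglecf (0.24) and Prg2 (0.01). Of the monocyte markers 0 of 7 were called by edgeR, DESeq2 or limma-voom, and 2 were lower at an unadjusted p under 0.05, with summed levels of 1527 to 1690 CPM in the KO-labelled and 1465 to 1705 CPM in the WT-labelled libraries; Ly6c2 had 0.06, Csf1r -0.01, Klf4 -1.05 and Ms4a6c -0.83. The precursor markers, of which 0 of 7 were called by the 3 tools and 1 was lower at an unadjusted p under 0.05, summed to 92.6 to 128 CPM in the KO-labelled and 112 to 143 CPM in the WT-labelled libraries, with Mpo at -0.59, Mki67 at -0.07 and Top2a at -0.23. The 7 erythroid markers (Hba-a2 0.05, Hbb-bs 0.16, Car1 0.34) and the 2 tested T and NK cell markers (Cd3d 0.27, Nkg7 -0.79) gave 0 calls by the same tools, with 0 erythroid markers and 1 T and NK cell marker (Cd3d) at an unadjusted p under 0.05 by edgeR. No marker in these lists was at 0 in every library. The S100 genes are also transcribed in several of these cell types, and the part of these cells in the S100 values was not tested either.

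Across the 6 libraries the abundant S100 genes varied together, in a range shared with many other genes. The Pearson correlation of log2 CPM, over 6 libraries in 2 groups that share depth and scaling, was 0.97 between S100a8 and S100a9, 0.93 between S100a8 and S100a6 and 0.83 between S100a8 and S100a11. For S100a8, S100a9 ranked 23 among 5652 other genes that averaged 10 CPM or more, predicted gene models left out, and 146 genes had a correlation above 0.9. The genes most like S100a8 were Mmp25, a membrane-bound metalloproteinase of leukocytes (0.991), Ndufa13, a subunit of respiratory complex I (0.989), the GTPase gene Arf1 (0.986), Kbtbd7 (0.984) and the stefin gene Stfa2 (0.982), which has near-identical copies that can share its reads. The genes most like S100a9 were Herpud1, of the endoplasmic reticulum (0.993), Glipr2 (0.992), Mmp25 (0.989), the actin regulator Gmfg (0.988) and Msmo1, of sterol synthesis (0.987). For S100a6 they were Parvg, an adaptor of integrin signalling (0.992), Rab4b (0.991), Ubp1 (0.990), Cfl1, which encodes cofilin (0.989), and Arl2bp (0.987). Exons of Ndufa13, Cfl1 and Ubp1 overlap genes on the other strand and those of Rab4b a gene on the same strand, so their counts are uncertain. With 6 points these values are a description and carry no test.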

How the data were processed

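The authors deposited whole-number read counts per Ensembl gene for 6 samples, not scaled between samples. Per the labels' protocols, cells were taken with Ly6G beads and libraries made with the Lexogen QuantSeq kit. The submitters' processing notes name RSEM 1.2.3, DESeq2 and mm10. The sources used here give no aligner, annotation release, strand setting or filter. Counts of similar genes can be shared, since RSEM splits reads that match more than 1 gene.

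Columns were assigned to samples by name and groups came from the condition label. Names and coordinates were taken from a GENCODE annotation of GRCm38, and 51596 of 51789 identifiers had a name. The groups were compared by edgeR 4.0.16 (R 4.3.3) with its quasi-likelihood test (glmQLFit, then glmQLFTest, TMM factors, filterByExpr with a minimum count of 10 and a minimum total of 15, Benjamini-Hochberg adjustment over 10397 genes, threshold 0.05), with the group as the only term. The standard error is the log2 fold change divided by the square root of F, and intervals use the moderated degrees of freedom. Library sizes were the total counts. Ratios and shares were tested with exact permutation tests, and correlations used log2 CPM with a prior count of 2. The procedure was tested on simulated counts with larger fold changes than those of S100a8 and S100a11. That run does not show how often changes of their size are called. Replicates differed beyond sampling noise in each pair, with a chi-square per degree of freedom of 4.12 to 6.79.

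The S100 genes and gene lists were chosen with earlier results of these data known. The text names the 8 genes, every other S100 gene with a count, of each list the 2 most abundant and the 2 with the smallest p, annotated neighbours on chromosome 3, the 5 genes most correlated with S100a8, S100a9 and S100a6, and Snph. The text says where a gene falls outside this rule. RefSeq promoter windows (GRCm38.p6) matched 7 of the 8 genes. Alternatives were RLE and upper-quartile factors, total counts only, library sizes without the S100 family, no filter, at least 5 CPM in 3 libraries as the filter, DESeq2 1.42.0, limma-voom (limma 3.58.1), a replicate block, a threshold of 0.1 and fits without each library in turn.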

Additional observations from a re-analysis of the deposited data

How the results depend on the processing

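Values are log2 fold changes of the KO-labelled over the WT-labelled libraries, with adjusted p in brackets, unless named otherwise. S100a8 (0.24) was no longer called with upper-quartile factors at 0.22 (0.0502) and total counts only at 0.14 (0.0959), and ran from 0.20 to 0.29 in fits without 1 library. S100a11 (0.31) was no longer called with RLE factors at 0.32 (0.0501), upper-quartile factors at 0.29 (0.0627), total counts only at 0.21 (0.141) and the filter of 5 CPM at 0.29 (0.0514), and ran from 0.26 to 0.35 in fits without 1 library. S100a9 was called with library sizes without the S100 family at 0.19 (0.0480), no filter at 0.20 (0.00442) and limma-voom at 0.19 (0.0388), stood at 0.09 (0.212) with total counts only, and ran from 0.17 to 0.22 without 1 library. S100a6 (0.31) was called with no filter at 0.31 (0.00041) and DESeq2 at 0.31 (0.0429), stood at 0.21 (0.215) with total counts only, and ran from 0.20 to 0.40 without 1 library, the lowest being without WT 3. S100a13 turned to 0.0438 without WT 2 and to 0.0443 without KO 3, in a range of -0.11 to 0.04. Without 1 library, S100a1 (-0.20) ran from -0.32 to -0.06, S100a4 (-0.47) from -0.89 to -0.29 and S100a10 (-0.25) from -0.28 to -0.18. S100a1, S100a4 and S100a10 kept their sign and stayed uncalled in each alternative that gave them a value; the filter of 5 CPM gave none for S100a4 and S100a10. The number of the 8 genes called (2) was 1 with RLE factors, 0 with upper-quartile factors, 0 with total counts only, 4 with no filter, 1 with the filter of 5 CPM and 0 to 2 without 1 library. The number of all genes called (107) was 162 with total counts only, 287 with no filter, 174 with DESeq2, 182 at a threshold of 0.1 and 49 to 97 without 1 library. The cause of these changes was not tested. The calprotectin share and the ratio of S100a8 to S100a9 kept their direction in each alternative, at 1.62 to 2.25 points and 0.02 to 0.06 without 1 library.

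Same-numbered libraries correlated at -0.03, -0.01 and -0.13 in their deviations from the group means, and no library correlated best with its own number. These values gave no sign that the numbers pair the samples. With 3 libraries a group they cannot exclude it. A fit with the replicate number as a block called 92 genes, gave S100a9 0.20 (0.0256, called) and S100a11 0.31 (0.0773, not called), and left the other calls of the 8 genes as they were. At 16 to 39 counts a library for S100a4 and 21 to 36 for S100a10, their 95% intervals included a difference of the size seen in S100a8.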
